A study of Mus musculus with 25 samples.

Results

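The 10 genes described here encode enzymes that turn cholesterol into conjugated bile acids: Cyp7a1, Cyp8b1, Cyp27a1, Cyp7b1, Cyp39a1, Hsd3b7, Akr1d1, Amacr, Baat and Slc27a5. They were chosen by their known function, but with earlier results of these data known. All 10 were found among the 41388 genes counted in mouse liver and all 10 were among the 14065 genes tested. Liver poly-A RNA was sequenced from 25 male mice labelled C57B/6J and 20 weeks old, 1 library per mouse, to ask how NAMPT acts on the liver during overnutrition and whether SIRT1 is needed for it. NAMPT makes the NAD precursor nicotinamide mononucleotide, and SIRT1 is a protein deacetylase that uses NAD. The groups were chow WT EV (n = 3), WD WT EV (n = 6), WD WT NAMPT (n = 6), WD LKO EV (n = 5) and WD LKO NAMPT (n = 5), where WD is a Western diet given for 12 weeks, EV is empty vector, and LKO is the label for loss of SIRT1 in the liver. Every mouse, the chow group included, had received an AAV8 virus once adult, at about 8 weeks of age. WT mice were littermates with 2 LoxP-flanked Sirt1 alleles and no Cre, so WT here means an intact floxed gene, and LKO mice carried Cre under the Albumin promoter in addition. The NAMPT vector used the thyroxine binding globulin promoter, which is active in hepatocytes. One protocol label gives SIRT1 as the insert, but titles give NAMPT, and the titles were followed.

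Bile acids are made in hepatocytes by a classic route, which starts with Cyp7a1 in the endoplasmic reticulum, and by an alternative route, which starts with Cyp27a1 in mitochondria and continues with Cyp7b1. Cyp39a1 acts on a hydroxylated sterol, Hsd3b7 and Akr1d1 remodel the steroid ring in both routes, and Cyp8b1 adds the hydroxyl group that makes cholic acid rather than chenodeoxycholic acid and its mouse derivatives. Amacr then acts on the side chain in peroxisomes, and Slc27a5 and Baat join the bile acid to coenzyme A and then to taurine or glycine. In mouse liver Cyp7a1 is repressed by bile acids through FXR (Nr1h4), SHP (Nr0b2) and a gut hormone, and several of these genes vary with the hour of the day and with the zone of the lobule.

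The libraries held 20166175 to 32937326 counts each, and the hepatocyte marker list was high in every library, with a summed level of 55691 to 92598 CPM (counts scaled to library depth). Sirt1 counts did not set the LKO libraries apart: the log2 difference was -0.07 ± 0.10 (SE) for LKO EV against WT EV and 0.19 ± 0.11 (SE) for LKO NAMPT against WT NAMPT, with limma adjusted p = 0.99 and 0.237. Counts over a whole gene do not show whether an exon was deleted, so these groups are called the libraries labelled LKO. Nampt was not called higher with the NAMPT vector either, with log2 differences of 0.34 ± 0.16 (SE, adjusted p = 0.144) in WT and 0.41 ± 0.16 (SE, adjusted p = 0.403) in the libraries labelled LKO. No sequencing batch, cage or hour of collection is given in the labels, and nothing says how the replicate numbers were assigned, so p-values measure the spread between these mice.

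Of the 10 genes, only Cyp8b1, Akr1d1, Cyp27a1 and Hsd3b7 had a promoter sequence available. All 4 were lower with NAMPT in WT liver, as described further on. Their promoter sequences are shown here. They are RefSeq windows of the GRCm38.p6 build that run from 250 bases before to 50 bases after the start, 5′ to 3′ on the strand of the gene, and the table held 4 of the 10 genes. Capitals mark matches, on either strand, to the TATA box letters TATAAA, the nuclear receptor half-site letters AGGTCA or the E-box letters CACGTG. The windows lie at chr9:121916256-121916555 on the minus strand (Cyp8b1), chr6:37529923-37530222 on the plus strand (Akr1d1), chr1:74713285-74713584 on the plus strand (Cyp27a1) and chr7:127800359-127800658 on the plus strand (Hsd3b7).
Cyp8b1: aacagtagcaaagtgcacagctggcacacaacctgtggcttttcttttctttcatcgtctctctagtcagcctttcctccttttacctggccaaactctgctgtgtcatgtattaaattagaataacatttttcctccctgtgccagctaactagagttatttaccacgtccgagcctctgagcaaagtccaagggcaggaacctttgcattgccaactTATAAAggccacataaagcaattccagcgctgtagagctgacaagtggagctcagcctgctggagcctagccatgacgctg
Akr1d1: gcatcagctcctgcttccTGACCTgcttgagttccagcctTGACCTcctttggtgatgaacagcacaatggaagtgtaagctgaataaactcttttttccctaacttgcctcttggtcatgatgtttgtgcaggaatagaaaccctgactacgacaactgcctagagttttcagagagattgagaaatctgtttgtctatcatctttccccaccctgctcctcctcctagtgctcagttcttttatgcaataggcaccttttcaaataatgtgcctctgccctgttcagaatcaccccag
Cyp27a1: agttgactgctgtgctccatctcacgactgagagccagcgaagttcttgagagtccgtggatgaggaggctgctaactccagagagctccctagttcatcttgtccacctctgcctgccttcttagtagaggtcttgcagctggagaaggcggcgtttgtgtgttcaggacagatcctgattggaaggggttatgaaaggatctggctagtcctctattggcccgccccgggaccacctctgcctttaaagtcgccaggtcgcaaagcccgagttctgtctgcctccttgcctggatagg
Hsd3b7: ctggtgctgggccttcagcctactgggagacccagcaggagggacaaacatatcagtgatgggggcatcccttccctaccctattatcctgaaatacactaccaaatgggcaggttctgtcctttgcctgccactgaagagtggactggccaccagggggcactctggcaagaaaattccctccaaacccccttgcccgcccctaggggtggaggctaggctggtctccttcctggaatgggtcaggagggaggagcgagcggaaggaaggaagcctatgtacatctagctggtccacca

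The Cyp8b1 window held 1 match, a TATAAA whose first base is at position -31 from the start. The Akr1d1 window held 2 half-sites, both on the reverse strand, with first bases at -232 and -210. No match was found in the Cyp27a1 and Hsd3b7 windows, no E-box was found in any of the 4, and no matches overlapped. Of all 32851 promoter windows of the same length, 13.6% held TATAAA, 16.3% held AGGTCA and 7.15% held CACGTG. A match is a run of letters and says nothing of binding.

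In the files' annotation (GRCm38), Cyp8b1 (ENSMUSG00000050445) is a single exon block of 1950 bases on the minus strand of chromosome 9 from 121914356 to 121916305. Cyp7a1 (ENSMUSG00000028240) lies on the minus strand of chromosome 4 from 6265612 to 6275633 with 6 exon blocks, and Cyp7b1 (ENSMUSG00000039519) on the minus strand of chromosome 3 from 18071950 to 18243338 with 6 exon blocks. Cyp27a1 (ENSMUSG00000026170) lies on chromosome 1 from 74713574 to 74737892, Akr1d1 (ENSMUSG00000038641) on chromosome 6 from 37530173 to 37568815, and Cyp39a1 (ENSMUSG00000023963) on chromosome 17 from 43667425 to 43751431. Baat (ENSMUSG00000039653) lies on chromosome 4 from 49489422 to 49506557, Slc27a5 (ENSMUSG00000030382) on chromosome 7 from 12988346 to 12998192, and Amacr (ENSMUSG00000022244) on chromosome 15 from 10981756 to 10996624. Hsd3b7 (ENSMUSG00000042289), on chromosome 7 from 127785608 to 127803802, is the one gene of the 10 whose exons overlap another gene: 57.25% of its 6154 exonic bases are shared with Setd1a on the same strand. Reads in shared bases were not counted for either gene, while the level of Hsd3b7 per length divides by all 6154 bases. That level is therefore too low for the bases that could be counted.

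Levels per length (RPKM, counts scaled to exonic length and library depth) ranked the enzymes in chow WT EV liver (n = 3) from Slc27a5, at 319 ± 24.6 RPKM (SD), and Cyp8b1, at 315 ± 70.3 RPKM, down to Cyp39a1, at 6.92 ± 1.08 RPKM. Between them came Cyp27a1 (186 ± 34.6 RPKM), Cyp7b1 (138 ± 62.8 RPKM), Baat (127 ± 32.8 RPKM), Hsd3b7 (90.9 ± 9.41 RPKM), Akr1d1 (64.9 ± 7.9 RPKM), Amacr (54.1 ± 1.07 RPKM) and Cyp7a1 (48.1 ± 34.7 RPKM). The gene that opens the classic route therefore ranked ninth, and its level differed from that of Amacr by less than its spread. Slc27a5 and Cyp8b1, Cyp27a1 and Cyp7b1, and Cyp7b1 and Baat were also neighbours that differed by less than the larger of their SDs. Hsd3b7 may rank higher than listed, since its RPKM divides by bases where no read was counted. In WD WT EV liver (n = 6) Slc27a5 (268 ± 39.9 RPKM) and Cyp8b1 (216 ± 30.8 RPKM) again led, and Cyp7a1 (21.3 ± 18.1 RPKM) and Cyp39a1 (2.74 ± 0.82 RPKM) came last.

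**Figure D1:**
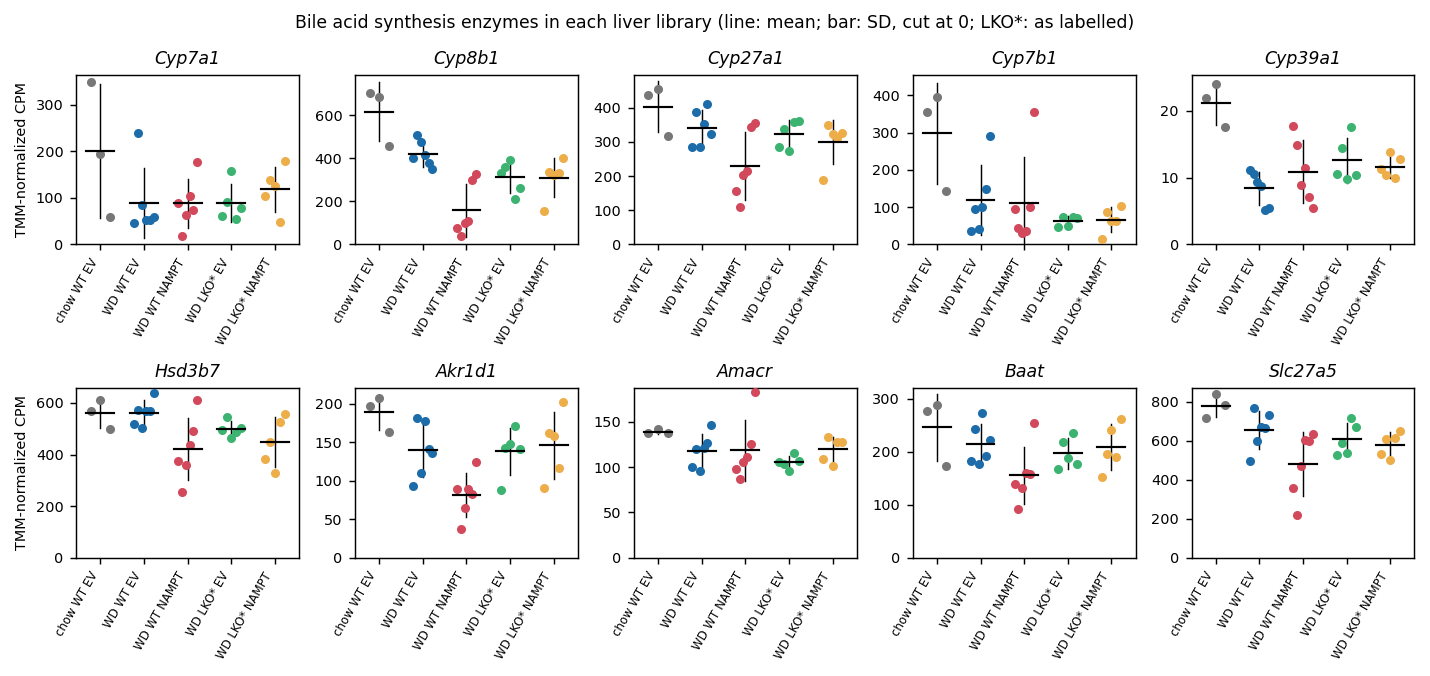
TMM-normalized CPM (vertical axis, linear from 0) of each enzyme in every library, by group, with 1 point per mouse, a line at the mean and a bar of 1 SD that is cut at 0. Cyp8b1 in WD WT NAMPT runs from 39.9 to 329 CPM, below all WD WT EV libraries (350 to 509 CPM), and Cyp7a1 and Cyp7b1 have the widest scatter relative to their means within WD WT EV; LKO* marks groups as labelled.

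NAMPT against empty vector was first compared in WT mice on Western diet. Cyp8b1, the enzyme that sets the share of cholic acid, was 3.6-fold lower, and Akr1d1, Cyp27a1, Baat and Hsd3b7 were 1.37- to 1.83-fold lower. These folds come from a fit that weights each library by quality. WD WT NAMPT libraries 1 to 6 had weights of 0.51, 0.40, 1.62, 1.85, 0.92 and 0.34. Without weighting, the mean of Cyp8b1 was 421 CPM with EV and 158 CPM with NAMPT. Cyp7a1, which opens the classic route, was not called, and no member was called higher. Altogether 5 of the 10 members were called lower, where 5.77% of all genes tested were called lower, 7.67% higher and 13.4% in either direction. The members' median log2 fold change was -0.50, and the median over all genes was 0.00.

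Cyp8b1 in WD WT EV ranged from 350 to 509 CPM with a median of 409. The WD WT NAMPT libraries 1 to 6 gave 77, 39.9, 96.7, 107, 299 and 329 CPM. Every NAMPT library was below every EV library, and the first 4 lay far under the other two. The log2 fold change was -1.85 ± 0.28 (SE, limma adjusted p = 0.0032), which ranked number 2 of the 14065 genes by p-value. Cyp8b1 was the 1 member of 10 whose libraries did not overlap between these groups, as was the case for 0.96% of all genes. The call held in all 12 fits that left out 1 library and under each of the 7 other processing settings.

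Akr1d1, the reductase that gives bile acids their bent ring, ranged from 92.6 to 182 CPM with a median of 139 in WD WT EV and from 37.8 to 125 CPM with a median of 86 in WD WT NAMPT. All NAMPT libraries but number 6 lay below every EV library. The log2 fold change was -0.87 ± 0.20 (SE, limma adjusted p = 0.0122). Cyp27a1, which opens the alternative route, ranged from 284 to 409 CPM (median 337) with EV and gave 156, 108, 203, 215, 342 and 356 CPM in NAMPT libraries 1 to 6. As for Cyp8b1, libraries 5 and 6 were the high ones, and here they fell inside the EV range. The log2 fold change of Cyp27a1 was -0.64 ± 0.17 (SE, limma adjusted p = 0.0181).

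Baat, which conjugates bile acids to taurine, ranged from 177 to 273 CPM (median 207) with EV and from 92.2 to 254 CPM (median 148) with NAMPT, a log2 fold change of -0.55 ± 0.15 (SE, limma adjusted p = 0.0209). Hsd3b7, the dehydrogenase and isomerase shared by both routes, ranged from 502 to 640 CPM (median 569) with EV and from 254 to 610 CPM (median 407) with NAMPT, a log2 fold change of -0.45 ± 0.12 (SE, limma adjusted p = 0.0174). In both genes the groups overlapped through the highest NAMPT library, number 6. The calls of Akr1d1, Cyp27a1, Baat and Hsd3b7 were lost with the edgeR quasi-likelihood test (adjusted p from 0.0566 to 0.132) and without quality weights, and those of Cyp27a1, Hsd3b7 and Baat also with DESeq2. They also depended on single libraries: without WD WT EV replicate 2 or without WD WT NAMPT replicate 3, Cyp8b1 was the only member called. Without WD WT NAMPT replicate 2, 2 members were called (Cyp8b1 and Akr1d1), and without WD WT EV replicate 6, 3 were (Cyp8b1, Hsd3b7 and Akr1d1). The calls over all genes fell in the same fits, from 1890 to 291, 132, 741 and 628 in that order.

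Slc27a5, the bile acid coenzyme A ligase, gave a log2 fold change of -0.39 ± 0.15 (SE, limma adjusted p = 0.075) and was not called. Amacr, the racemase, gave -0.06 ± 0.10 (SE, limma adjusted p = 0.755). Cyp39a1 gave 0.24 ± 0.21 (SE, limma adjusted p = 0.48), the only positive value of the 10 in this fit. Cyp7a1 ranged from 45.1 to 240 CPM (median 56) with EV and from 18.8 to 176 CPM (median 82.1) with NAMPT, and its log2 fold change was -0.16 ± 0.46 (SE, limma adjusted p = 0.847). The groups overlapped almost entirely, and the 95% interval of the Cyp7a1 log2 fold change, -1.10 to 0.78, does not show that its level was the same. Cyp7b1, from 36.7 to 292 CPM with EV and from 31.1 to 355 CPM with NAMPT, gave -0.81 ± 0.46 (SE, limma adjusted p = 0.242). The Cyp7a1 value ran from -0.39 to 0.43 over fits that left out 1 library. With the replicate number added to the fit as a block, Cyp7a1, Cyp7b1 and Amacr turned positive.

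**Figure D2:**
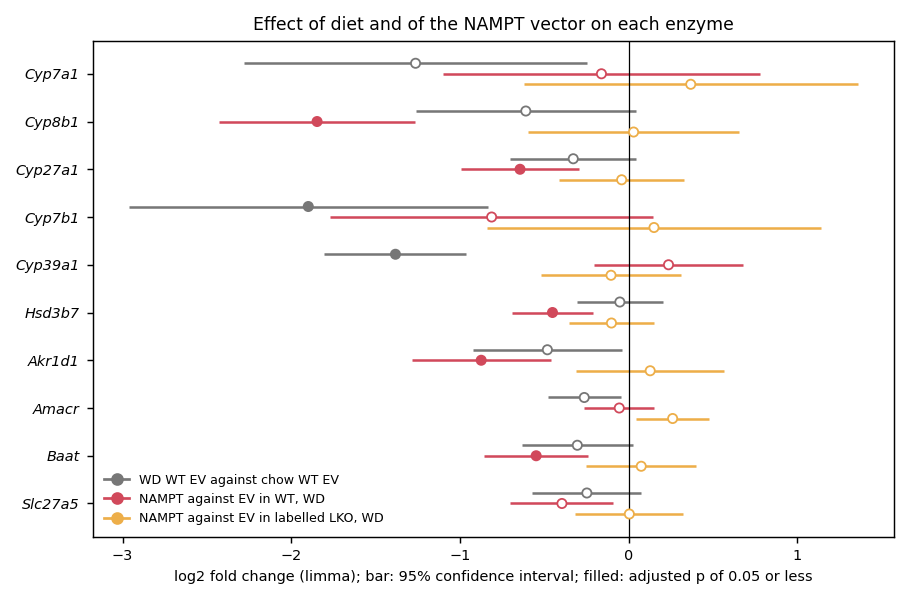
Limma log2 fold change (horizontal axis) with its 95% confidence interval for each enzyme in 3 comparisons, with filled circles for values of adjusted p of 0.05 or less. Filled circles stand at Cyp8b1, Cyp27a1, Hsd3b7, Akr1d1 and Baat for NAMPT in WT, at Cyp7b1 and Cyp39a1 for the diet, and at no gene for NAMPT in the libraries labelled LKO.

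The ratio of Cyp8b1 to Cyp7a1 per length put both classic-route genes on 1 scale within each library. It was 12.1 to 19 in all WD WT EV libraries but number 2, which had 4.54. In WD WT NAMPT libraries 1 to 6 it was 1.84, 4.54, 3.24, 2.2, 8.58 and 3.99. It was 4.32 to 16.6 in chow WT EV, 5.31 to 11.6 in LKO EV and 3.21 to 14.9 in LKO NAMPT, each as labelled. These ratios are a description that was added after the values were seen, and no test was made.

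**Figure D3:**
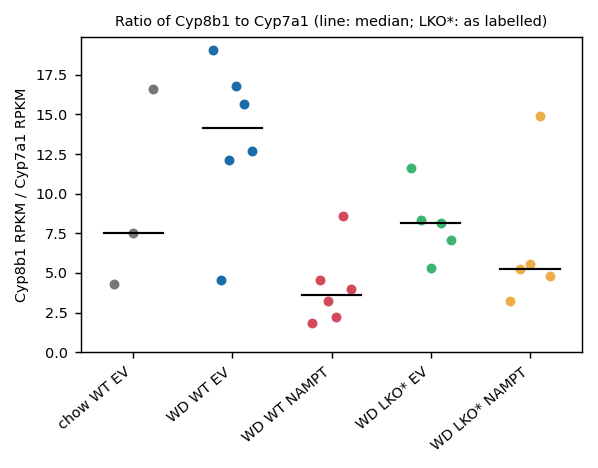
Ratio of Cyp8b1 to Cyp7a1 RPKM (vertical axis, linear from 0) in each library by group, with a line at the median. The median is 14.2 in WD WT EV and 3.61 in WD WT NAMPT, and 1 EV library at 4.54 lies inside the NAMPT range.

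Other genes of bile acid synthesis, transport to mitochondria and side chain shortening gave 0 called higher and 6 called lower of 17 tested in the same comparison, with a median log2 fold change of -0.24. The 6 were Slc27a2, a very long chain acyl coenzyme A ligase (-0.53 ± 0.13 SE), Hsd17b4, a peroxisomal enzyme (-0.39 ± 0.11 SE), Acnat1 (-0.69 ± 0.16 SE), Acnat2 (-0.85 ± 0.27 SE), Akr1c14 (-0.59 ± 0.17 SE) and Cyp46a1 (-2.17 ± 0.42 SE), with limma adjusted p from 0.00754 to 0.0373. Cyp46a1, the cholesterol hydroxylase of brain, was at 2.49 to 5.78 CPM with EV and 0.354 to 3.06 CPM with NAMPT, and few counts lie behind it. Of 19 regulators, 1 was called, the transcription repressor Nfil3 at -0.84 ± 0.23 (SE, limma adjusted p = 0.0216). The bile acid receptor Nr1h4 (-0.12 ± 0.12 SE, adjusted p = 0.53) and the corepressor Nr0b2 (-0.21 ± 0.21 SE, adjusted p = 0.523), named here after their values were seen, were not called. Of 15 clock genes, 5 were called lower, among them Arntl (-1.99 ± 0.44 SE), Npas2 (-1.98 ± 0.64 SE), Clock (-0.43 ± 0.13 SE) and Hlf (-0.48 ± 0.16 SE). Dbp, another clock gene, was 8.79 to 14.1 CPM in WD WT EV replicates 1, 2 and 4 and 36.4 to 51.3 CPM in replicates 6, 7 and 8. In WD WT NAMPT it was 24.8 to 63.9 CPM. The hour of collection is not known, and its part in the bile acid enzymes was not tested.

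Markers of other cells and zones moved with the enzymes in this comparison. Of 10 macrophage markers, 7 were called higher with a median log2 fold change of 0.91, and of 10 stellate and fibroblast markers, 6 were called higher with a median of 0.61. Of 6 neutrophil markers tested 2 were called higher, and of 8 lymphocyte markers 1. Of 13 pericentral genes, 3 were called lower (Cyp2e1, Oat and Cyp2c29) and none was positive, with a median log2 fold change of -0.53. Of 13 periportal genes, 3 were called higher (Aldh1b1, Sdsl and Ctsc). No defining marker of these cell types was at 0 in every library of a group. Of the 10 hepatocyte markers, 1 was called lower, Apoa2 at -0.57 ± 0.14 (SE).

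The same libraries stood out in Cyp8b1 and in these lists. The summed macrophage level was 1040, 957, 1012, 698, 575 and 339 CPM in WD WT NAMPT libraries 1 to 6, against 354 to 513 CPM in WD WT EV. The summed pericentral level was 4170, 2421, 4605, 4654, 8303 and 10540 CPM in those libraries, against 7004 to 12060 CPM in WD WT EV. Thus libraries 1 to 4 had the lowest Cyp8b1, the highest macrophage and the lowest pericentral levels of the group, and library 6, with Cyp8b1 at 329 CPM, lay below the EV range for macrophage markers and within it for pericentral genes. Their part in the Cyp8b1 result was not tested. In whole liver, fewer cells of a type and less RNA per cell cannot be told apart.

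**Figure D4:**
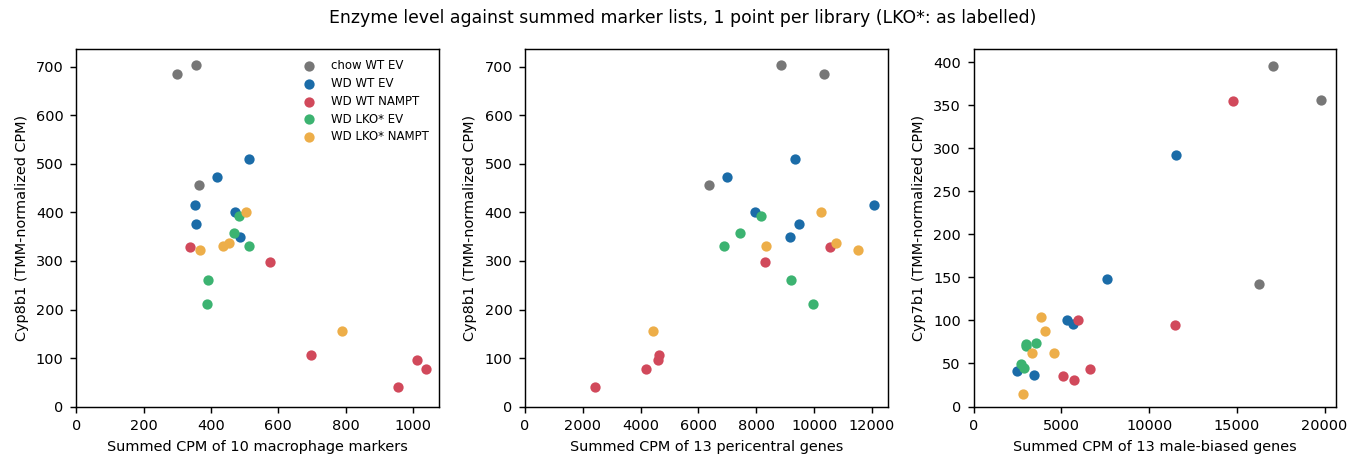
CPM of Cyp8b1 against the summed CPM of 10 macrophage markers (left) and of 13 pericentral genes (middle), and of Cyp7b1 against the summed CPM of 13 male-biased genes (right), all on linear axes with 1 point per library. The 4 lowest WD WT NAMPT libraries (39.9 to 107 CPM of Cyp8b1) and the lowest library labelled LKO NAMPT (156 CPM) sit at 698 to 1040 CPM of macrophage markers and 2421 to 4654 CPM of pericentral genes.

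NAMPT against empty vector in the libraries labelled LKO called 0 of the 10 members, where limma called 1 gene of all those tested (0.00711%). At an unadjusted p below 0.05, 1355 genes and 1 member passed, and neither edgeR nor DESeq2 called a member. No member had libraries that did not overlap, beside 1.15% of all genes. Cyp8b1 was 331, 358, 392, 211 and 260 CPM with EV and 156, 337, 324, 331 and 401 CPM with NAMPT, a log2 fold change of 0.03 ± 0.30 (SE, limma adjusted p = 0.984). The groups overlapped, and the 95% interval of this log2 fold change was -0.59 to 0.65, which does not reach the value in WT. Akr1d1 was 88.5, 143, 148, 171 and 141 CPM with EV and 90.5, 162, 158, 117 and 203 CPM with NAMPT, a log2 fold change of 0.13 with an interval of -0.31 to 0.57. Cyp27a1 gave -0.04 (-0.41 to 0.33), Baat 0.08 (-0.25 to 0.40), Hsd3b7 -0.10 (-0.35 to 0.15) and Slc27a5 0.00 (-0.31 to 0.32) as log2 fold changes with 95% intervals. Cyp7a1 gave 0.37 (-0.62 to 1.36), Cyp7b1 0.15 (-0.84 to 1.14) and Cyp39a1 -0.10 (-0.52 to 0.31). The member with an unadjusted p of 0.0202 was Amacr, at 0.26 ± 0.11 (SE, limma adjusted p = 0.42). The median over the 10 was 0.05, beside 0.02 over all genes.

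Replicate 1 of the libraries labelled LKO NAMPT stood apart from the other 4 in 3 members. Cyp8b1 was 156 CPM there against 324 to 401 CPM, Cyp27a1 was 189 CPM against 312 to 350 CPM, and Cyp7b1 was 14.8 CPM against 62 to 104 CPM. The same library had 788 CPM of macrophage markers against 367 to 504 CPM, and 4439 CPM of pericentral genes against 8324 to 11503 CPM. Its place resembled that of WD WT NAMPT libraries 1 to 4. Without it the Cyp8b1 log2 fold change was 0.17 (limma adjusted p = 0.865).

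The difference between both NAMPT effects was tested as an interaction, the effect in libraries labelled LKO minus the effect in WT, in the same fit of 25 libraries. In this fit it was positive for 9 of the 10 members, with a median of 0.57 on the log2 scale. The value of Cyp7a1 turned to -0.059 without WD WT EV replicate 2, and those of Cyp7a1 and Cyp7b1 turned negative with the replicate block. In the fit of 25 libraries without a block, 0 members were called at an adjusted p of 0.05 (limma), where 0.00711% of genes were called. At an unadjusted p below 0.05, 5 members and 2986 genes passed. Cyp8b1 came nearest, at 1.88 ± 0.41 (SE, 95% interval 1.02 to 2.73, adjusted p = 0.0582), which ranked number 30 of all genes, followed by Akr1d1 at 1.002 ± 0.29 (SE, 0.40 to 1.60, adjusted p = 0.0843). Leaving out the library labelled LKO NAMPT 1, which stood apart, gave Cyp8b1 an adjusted p of 0.0198 and Akr1d1 0.0348, and both passed. Leaving out WD WT NAMPT replicate 6 also called both genes, and leaving out WD WT NAMPT replicate 5 or WD WT EV replicate 8 called Cyp8b1. The other 18 of the 22 fits that left out 1 library called no member, and the adjusted p of Cyp8b1 reached 0.21 without LKO NAMPT replicate 5. The 4 fits with a call also called more genes in all, 677, 636, 366 and 62 in the order given, against 1 with all libraries. Over the 7 other settings the adjusted p of the Cyp8b1 interaction ran from 0.0606 to 0.4, and no call was made.

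When the groups with NAMPT were compared directly, 2 of the 10 members were called higher in the libraries labelled LKO than in WT, where 4.18% of genes were called higher, 3.78% lower and 7.96% in either direction. Cyp8b1 was 2.67-fold higher, a log2 difference of 1.42 ± 0.30 (SE, limma adjusted p = 0.0148). Akr1d1 was 1.93-fold higher, a log2 difference of 0.95 ± 0.21 (SE, limma adjusted p = 0.0188). Groups overlapped in both genes, for Cyp8b1 because WD WT NAMPT libraries 5 and 6 (299 and 329 CPM) were above the lowest LKO NAMPT library (156 CPM), and for Akr1d1 because library 6 was (125 against 90.5 CPM), and no member was free of overlap, beside 1.39% of all genes. In this fit all 10 differences were positive with a median of 0.44, but that of Cyp7b1 (0.41) turned to -0.73 with edgeR, -0.75 with DESeq2 and -0.44 without quality weights. Baat (0.48 ± 0.16 SE, adjusted p = 0.0585) and Cyp27a1 (0.51 ± 0.18 SE, adjusted p = 0.073) came next. Without WD WT NAMPT replicate 3, or without LKO NAMPT replicate 2 or 5, 0 members were called, and the calls over all genes fell from 1120 to 78, 0 and 2. Without WD WT NAMPT replicate 5 or 6, or without LKO NAMPT replicate 1, 4 members were called, Cyp27a1 and Baat being added, and 1954, 2290 and 2266 genes in all. The Cyp8b1 call was lost under 5 of the 7 other settings, with the log2 difference at 0.97 with edgeR (adjusted p = 0.172) and 0.96 with DESeq2 (adjusted p = 0.134), and the Akr1d1 call under 4 of the 7, with an adjusted p of 0.107 with edgeR. Of the other bile acid synthesis genes, 3 of 17 were called higher: Cyp46a1 (1.95 ± 0.43 SE), Akr1c14 (0.57 ± 0.18 SE) and Slc27a2 (0.47 ± 0.14 SE). Macrophage markers ran the other way, with 3 of 10 called lower, while 6 of 13 pericentral genes were called higher. Their part was not tested, and this comparison shares its WT NAMPT libraries with the comparison of NAMPT and EV in WT.

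With empty vector on Western diet, 0 of the 10 members were called between the libraries labelled LKO and WT, where 0.00711% of genes were called by limma. At an unadjusted p below 0.05, 891 genes and 1 member passed, and neither edgeR nor DESeq2 called a member. No member had libraries that did not overlap, beside 0.59% of all genes. The 1 member was Cyp39a1, at a log2 difference of 0.49 ± 0.21 (SE, limma adjusted p = 0.72). Cyp8b1 gave -0.46 (95% interval -1.05 to 0.13), Cyp7b1 -0.56 (-1.49 to 0.38) and Cyp7a1 0.01 (-0.91 to 0.93). The other 6 ranged from -0.16 to -0.05 in this fit. With the replicate block these 6 turned positive, as did Cyp7b1 (0.40).

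Between WT EV mice on Western diet and on chow, the diet group had lower levels of Cyp39a1 and Cyp7b1, which both act on hydroxylated sterols. Cyp39a1 was 2.61-fold lower and Cyp7b1 was 3.73-fold lower. These were 2 members called lower of 10 and 0 higher, where 12% of genes were called lower, 10.1% higher and 22% in either direction, so the share was near that of all genes in this fit. In this fit all 10 log2 fold changes were negative, with a median of -0.40 beside 0.00 over all genes, but that of Hsd3b7 (-0.05) turned to between 0.0064 and 0.076 with edgeR, with DESeq2, without quality weights and without chow replicate 1 or 2. The median was -0.31 over 10 hepatocyte markers (5 called lower), -0.60 over 13 periportal genes (6 lower) and 0.07 over 13 pericentral genes (2 lower). Their part was not tested. With the replicate block, 7 members and 3842 of the 14065 genes were called.

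Cyp39a1 was 21.9, 24 and 17.5 CPM on chow and 5.21 to 11.1 CPM (median 8.97) on Western diet. The groups did not overlap, in 1 member of 10, as in 16.1% of all genes with these group sizes, and 119 to 539 counts lay behind each value. The log2 fold change was -1.38 ± 0.20 (SE, limma adjusted p = 3.94e-05), and the call held in all 9 fits that left out 1 library. Cyp7b1 was 356, 396 and 143 CPM on chow and 36.7, 95.7, 41.2, 101, 148 and 292 CPM on Western diet. Its groups overlapped through the third chow library and the highest 2 Western diet libraries. The log2 fold change was -1.90 ± 0.52 (SE, limma adjusted p = 0.0103), and without chow replicate 1 or 2 the adjusted p was 0.271 or 0.339, in fits that called 966 or 834 genes in all. The Cyp7b1 call was also lost with edgeR (-1.32, adjusted p = 0.207), DESeq2 (-1.31, adjusted p = 0.226) and without quality weights (-1.56, adjusted p = 0.2).

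Cyp7a1 was 348, 195 and 59 CPM on chow, and on Western diet 1 library had 240 CPM and the other 5 had 45.1 to 83.9 CPM. The log2 fold change was -1.26 ± 0.49 (SE, limma adjusted p = 0.0668), not called. Without WD WT EV replicate 2, the library at 240 CPM, it was -1.85 (adjusted p = 0.00431) and Akr1d1 was called as well, and without chow replicate 3 it was -1.59 (adjusted p = 0.0247). Without chow replicate 1 it was -0.30 (adjusted p = 0.834), so single libraries decide this value. Cyp8b1 was 703, 685 and 457 CPM on chow against 350 to 509 CPM on Western diet, a log2 fold change of -0.61 ± 0.32 (SE, limma adjusted p = 0.172). With only the groups compared in the limma fit, Cyp8b1 was called lower (-0.61, adjusted p = 0.0113). Akr1d1 (-0.48, adjusted p = 0.108), Cyp27a1 (-0.33, adjusted p = 0.202), Baat (-0.30, adjusted p = 0.176), Amacr (-0.26, adjusted p = 0.075), Slc27a5 (-0.25, adjusted p = 0.269) and Hsd3b7 (-0.05, adjusted p = 0.8) were not called by limma in the fit of all libraries without a block. With the replicate block limma called Akr1d1 (adjusted p = 0.0129), Cyp27a1 (0.0479), Baat (0.0319), Amacr (0.0022) and Slc27a5 (0.0172) lower. Amacr was also called without WD WT EV replicate 8 (0.0276).

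Among the other bile acid synthesis genes, Western diet had 3 of 17 called higher and 3 called lower. Acnat2, an acyltransferase of peroxisomes, rose by 2.35 ± 0.34 (SE) on the log2 scale, with Cyp46a1 at 1.84 ± 0.44 (SE) and Slc27a2 at 0.56 ± 0.14 (SE). Cyp3a11, a drug and bile acid hydroxylase, was at -2.21 ± 0.21 (SE, limma adjusted p = 1.14e-07), Stard4, a cholesterol carrier, at -0.83 ± 0.19 (SE) and Akr1c14 at -0.50 ± 0.18 (SE). Of 19 regulators, Nr0b2 (0.67 ± 0.23 SE), Bhlhe40 (1.26 ± 0.22 SE) and Ppara (1.04 ± 0.16 SE) were called higher, and Nfil3 (-1.27 ± 0.21 SE) and Nr5a2 (-0.31 ± 0.11 SE) were among those called lower. The diets overlapped in Nr0b2, at 25.8 to 58.3 CPM on chow and 29.3 to 82.55 CPM on Western diet. Of the 19, 3 were called higher and 3 lower, with a median log2 fold change of -0.02.

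Clock genes differed between the diets too, with 6 of 15 called higher and 4 called lower on Western diet. Dbp was 0.62, 1.25 and 5.13 CPM on chow and 8.79 to 51.3 CPM on Western diet, and Arntl was 27.6 to 37.4 CPM on chow and 4.88 to 18.1 CPM on Western diet. The groups did not overlap in either gene. Within WD WT EV, Dbp was 14.1, 11.3 and 8.79 CPM and Arntl 18.1, 15.8 and 13.8 CPM in replicates 1, 2 and 4, and Dbp was 36.4, 51.3 and 46 CPM and Arntl 10.1, 4.88 and 9.98 CPM in replicates 6, 7 and 8. The first 3 of these libraries also had less Cyp7b1 (36.7 to 95.7 against 101 to 292 CPM) and more Cyp39a1 (9.28 to 11.1 against 5.21 to 8.66 CPM) than the other 3, which was seen in the values and was not tested. In the libraries labelled LKO EV, Dbp was 11.4 and 15.5 CPM in replicates 1 and 2 and 42.8 to 62.1 CPM in replicates 3 to 5. Neither enzyme was split there. Cyp7b1 was 45.3 and 74.1 against 49.3 to 72.6 CPM, and Cyp39a1 was 10.6 and 14.4 against 9.85 to 17.6 CPM. Since no hour of collection is given, a difference in diet and a difference in hour cannot be told apart for the enzymes that follow the clock. Of 12 male-biased genes tested, 3 were called lower and none was positive, with a median log2 fold change of -0.77.

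Cyp7b1 itself is higher in male than in female mouse liver, and it varied with that list. The male-biased list summed to 16252 to 19798 CPM on chow and to 2449 to 11550 CPM in WD WT EV. The library with the most Cyp7b1 in WD WT EV, replicate 8 at 292 CPM, also had the highest sum of its group, and so did WD WT NAMPT replicate 6, with 355 CPM of Cyp7b1 and a sum of 14801 CPM. In the libraries labelled LKO EV and LKO NAMPT, Cyp7b1 did not exceed 104 CPM and the sum did not exceed 4557 CPM. Chow replicate 3, with 143 CPM of Cyp7b1 at a sum of 16252 CPM, and WD WT NAMPT replicate 1, with 95.2 CPM at a sum of 11473 CPM, were exceptions. The 15 female-biased genes summed to 16.5 to 305 CPM over all libraries. The part of the male-biased program in the Cyp7b1 values was not tested.

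Within groups, the enzymes scattered to different degrees. In WD WT EV the coefficient of variation was 84.9% for Cyp7a1 and 79.1% for Cyp7b1, and 8.63% to 29.9% for the other 8. In WD WT NAMPT it was 112% for Cyp7b1, 78% for Cyp8b1 and 28.7% to 59.3% for the rest. After group means were removed from log2 CPM over the 25 libraries, 36 of the 45 pairs of members had a positive Pearson correlation, and the 9 negative pairs were those with Cyp39a1, of which 3 had a rho above 0. Libraries share depth and liver composition, so these values describe joint scatter only.

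The closest pair was Akr1d1 and Baat, with r = 0.87 and rho = 0.86 (permutation p = 2e-05 and 1e-05, the latter the smallest the permutations can give, both adjusted p = 0.00045 over 45 pairs). Without the 2 libraries farthest from the median r was 0.81. Cyp8b1 and Cyp27a1 had r = 0.84 and rho = 0.59 (permutation p = 0.00105 and 0.00784, adjusted p = 0.0043 and 0.0196), and r was 0.70 without the 2 farthest libraries. Hsd3b7 and Amacr had r = 0.84 and rho = 0.74 (permutation p = 2e-05 and 0.00033, adjusted p = 0.00045 and 0.0036), and r was 0.72 without the 2 farthest libraries. Cyp39a1 and Amacr went in opposite directions, with r = -0.67 and rho = -0.55 (permutation p = 0.00424 and 0.0137, adjusted p = 0.0083 and 0.0281), and r was -0.51 without the 2 farthest libraries.

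The genes whose scatter was most like that of Cyp7a1 over the 25 libraries were Invs (r = 0.80), Bhmt (r = 0.77) and Adap2os (r = 0.77), by Pearson correlation of deviations from group means. For Cyp8b1 they were Gm11789 and Acox3 (both r = 0.90) and Mgst1 (r = 0.87). For Cyp7b1 they were Mup21 (r = 0.94), Serpina3k (r = 0.93) and Mup3 (r = 0.93). Mup and Serpina3 genes have near-identical copies that can share reads, so their counts are uncertain. Genes averaging below 0 on the log2 CPM scale were left out of this ranking, and no p-value is given.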

How the data were processed

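Poly-A RNA of 25 livers was measured by single-end sequencing. The authors aligned reads to GRCm38 and deposited counts of unique, unambiguous reads per gene, with CPM and RPKM values computed from them; the submitters' processing notes name STAR 2.5.1a and featureCounts 1.4.6-p5, and no source used here states whether counting used strand. Recomputed CPM and RPKM deviated from the deposited ones by at most 5.9e-14 (relative), and the counts were used. Groups came from sample titles. Genes with more than 1 CPM in at least 2 libraries were kept and 4 ribosomal RNA genes removed. Following the study, TMM factors (edgeR 4.0.16) and voomWithQualityWeights (limma 3.58.1, R 4.3.3) were used with 25 libraries in 1 fit, and genes with Benjamini-Hochberg adjusted p of 0.05 or less over all 14065 genes were called. CPM are TMM-normalized, and correlations used log2(CPM + 0.5) with 100000 permutations within groups. Comparisons with WD WT EV share that group. Replicates in a group were no copies (smallest chi-square per degree of freedom 15.1). Alternatives were the edgeR quasi-likelihood test, DESeq2 1.42.0 (also its size factors in limma), no filter, no quality weights, only the groups compared, the replicate block and leaving out each library. Scripts were tested on simulated data. The members and lists were chosen with earlier results of these data known. Named genes are the members, genes of the lists from those called (some are not reported here), the 3 genes most like Cyp7a1, Cyp8b1 and Cyp7b1, and Sirt1 and Nampt as label checks.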

Additional observations from a re-analysis of the deposited data

Results flagged for a closer look

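Of 40 groups of 5 or 6 libraries tested for a single value far from the rest, 5 had one, and chance gives about 1 in 20. Cyp7a1 in WD WT EV was highest in replicate 2, at 240 CPM, with the next library at 83.9 CPM. In the libraries labelled LKO NAMPT, replicate 1 was the lowest of its group for Cyp8b1 (156 CPM, next 324 CPM), Cyp27a1 (189 CPM, next 312 CPM) and Cyp7b1 (14.8 CPM, next 62 CPM), so 3 of the 5 values came from 1 library. Akr1d1 in the libraries labelled LKO EV was lowest in replicate 1, at 88.5 CPM, with the next library at 141 CPM.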

How the results depend on the processing

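Over the 7 settings, 30 values of single members lost their call, 6 gained one and 35 changed sign. For NAMPT against EV in WT (5 called), DESeq2 size factors in limma called 5, no filter 3, only the groups compared 3, DESeq2 2, the replicate block 2, the edgeR quasi-likelihood test 1 and no quality weights 1, with Cyp8b1 called in each. Its log2 fold change for NAMPT in WT ran from -1.85 to -1.42 over those settings. For LKO NAMPT against WT NAMPT (2 called), DESeq2, no filter and the block called 1 each, and edgeR, no quality weights and only the groups compared called 0. For Western diet against chow (2 called), edgeR, DESeq2 and no quality weights called 1 (Cyp7b1 was lost), only the groups compared 3 and the block 7. The interaction and the 2 comparisons within LKO or within EV called 0 members under all 7 settings; DESeq2 gave no adjusted p for 5 members of the interaction.

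Leaving out 1 library gave 1 to 6 called members for NAMPT in WT, 0 to 4 for LKO NAMPT against WT NAMPT, 1 to 4 for diet and 0 to 2 for the interaction. Over all genes the same fits called 132 to 2844, 0 to 2290, 834 to 3175 and 1 to 677 genes, in that order. Over all genes, the 1890, 1120 and 3101 calls for NAMPT in WT, LKO NAMPT against WT NAMPT and diet became 428, 45 and 1322 with edgeR, 1194, 294 and 1745 with DESeq2, 524, 120 and 1970 without the filter, 192, 38 and 1201 without quality weights, 804, 13 and 2649 with only the groups compared, and 884, 412 and 3842 with the block; the interaction's 1 call became 19 with DESeq2, 4 without the filter and 66 with the block.

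Same-numbered libraries of different groups correlated from -0.38 to 0.42 in their deviations. With so few libraries per group, these values cannot settle whether the numbers pair mice or mark a batch. Signs turned only in values that were not called. With edgeR, the log2 values that turned were Amacr 0.0016 for NAMPT in WT, Cyp8b1 -0.0038, Slc27a5 -0.066 for NAMPT in LKO, Cyp7b1 -0.73 for LKO NAMPT against WT NAMPT, Hsd3b7 0.0073 for diet. With DESeq2, the log2 values that turned were Cyp8b1 -0.013, Slc27a5 -0.075 for NAMPT in LKO, Cyp7b1 -0.75 for LKO NAMPT against WT NAMPT, Hsd3b7 0.013 for diet. With DESeq2 size factors in limma, the log2 values that turned were Slc27a5 -0.0049 for NAMPT in LKO. Without the filter, the log2 values that turned were Slc27a5 -0.035 for NAMPT in LKO. Without quality weights, the log2 values that turned were Cyp7a1 0.034 for NAMPT in WT, Cyp8b1 -0.032, Cyp7b1 -0.14, Slc27a5 -0.065 for NAMPT in LKO, Cyp7b1 -0.44 for LKO NAMPT against WT NAMPT, Hsd3b7 0.0064 for diet. With only the groups compared, the log2 values that turned were Slc27a5 -0.0089 for NAMPT in LKO, Cyp7a1 -0.00043 for LKO EV against WT EV. With the replicate block, the log2 values that turned were Cyp7a1 0.23, Cyp7b1 0.32, Amacr 0.20 for NAMPT in WT, Cyp8b1 -0.045, Cyp7b1 -0.025, Baat -0.0025, Slc27a5 -0.035 for NAMPT in LKO, Cyp27a1 0.028, Cyp7b1 0.40, Hsd3b7 0.0024, Akr1d1 0.18, Amacr 0.053, Baat 0.054, Slc27a5 0.0030 for LKO EV against WT EV, Cyp7a1 -0.11, Cyp7b1 -0.35 for the interaction. For NAMPT in WT, leaving out 1 library at a time gave log2 values of -0.39 to 0.43 (Cyp7a1), -0.12 to 0.0057 (Amacr). For NAMPT in LKO, leaving out 1 library at a time gave log2 values of -0.11 to 0.17 (Cyp8b1), -0.15 to 0.051 (Cyp27a1), -0.15 to 0.45 (Cyp7b1), -0.21 to 0.0097 (Cyp39a1), -0.055 to 0.24 (Akr1d1), -0.045 to 0.14 (Baat), -0.061 to 0.065 (Slc27a5). For LKO EV against WT EV, leaving out 1 library at a time gave log2 values of -0.25 to 0.60 (Cyp7a1), -0.17 to 0.13 (Akr1d1). For diet, leaving out 1 library at a time gave log2 values of -0.087 to 0.076 (Hsd3b7). For the interaction, leaving out 1 library at a time gave log2 values of -0.059 to 0.85 (Cyp7a1).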

Other observations

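Cyp39a1 was the member at the lowest level per length in all 5 groups. In the limma fit of all 25 libraries it was the only one with a positive log2 fold change for NAMPT in WT, though other settings gave positive values for Cyp7a1, Cyp7b1 and Amacr. Its Pearson correlation with each of the other 9 members was negative, from -0.67 to -0.08, but Spearman's rho was near 0 and positive with Cyp7a1 (0.012), Akr1d1 (0.096) and Baat (0.055).

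Endothelial markers had 1 called higher and 3 called lower of 9 for NAMPT in WT, and cholangiocyte markers had 0 called of 7. Of the 10 female-biased genes tested, 0 were called for NAMPT in WT. On Western diet, 6 of 13 periportal genes and 5 of 10 hepatocyte markers were called lower, among them Cps1 of the urea cycle at -1.22 ± 0.25 (SE) on the log2 scale, and 2 of 10 macrophage markers were called higher.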
